A study of Mus musculus and Homo sapiens
Mus musculus with 16 samples.

Results

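The genes Tcf7l1, Tcf7l2 and Lef1, which encode DNA-binding factors of the Wnt pathway, and Tle1, Tle3 and Tle4, which encode corepressors of the Groucho family, were followed through chromatin contacts of the mouse fetal forebrain. The genes were grouped by family name, with earlier results of these data known. An interaction counted for a gene when either of its 10 kb bins overlapped the gene body in mm10. Over 4 libraries, 264 of 58543 listed bin pairs touched 1 of these 6 genes, and no interaction joined 2 of the genes. The libraries are H3K4me3 PLAC-seq of forebrain tissue, 2 from embryos at E12.5 and 2 at E16.5. PLAC-seq ligates DNA fragments that lie close together in crosslinked nuclei and enriches those bound to a chosen protein, here histone H3 trimethylated at lysine 4, a mark of active promoters. The labels give no genotype, strain, sex or treatment that differs between the stages, and do not say how many embryos were pooled, so p-values measure the spread between these libraries only. The other 12 samples of the series were not analysed here.

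In the canonical Wnt pathway, beta-catenin that escapes degradation enters the nucleus and binds TCF and LEF factors at their target genes. Without it, the same factors hold Tle corepressors, which recruit silencing complexes, so the genes described here encode the switch between repression and activation. In the embryonic brain, Tcf7l2 is known for the thalamus and midbrain, Lef1 for the cortical hem, hippocampus and thalamus, Tcf7l1 for early forebrain progenitors, and Tle4 for deep-layer projection neurons of the cortex.

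The lists held 18413 and 16075 interactions at E12.5 (replicates 1 and 2) against 35291 and 36794 at E16.5, with a total of 405491 to 911710 read pairs in them. The E16.5 lists are therefore longer, and the number of interactions of a gene is given both as listed and relative to the list. A bin pair missing from a list did not pass the authors' threshold and is not known to be uncontacted. Of 10 listed marker genes of the telencephalon, part of the labelled tissue, 9 had enough interactions to be tested, among them the forebrain patterning gene Lhx2 with 100 and 99 interactions at E12.5 against 78 and 91 at E16.5. The 6 genes together had 139 and 165 interactions at E12.5 against 130 and 137 at E16.5. That was 0.755% and 1.03% of the list at E12.5 against 0.368% and 0.372% at E16.5, so the stages did not overlap. The mean share was 0.891% ± 0.192 (SD, n = 2) against 0.370% ± 0.00281 (SD, n = 2), with a two-sided exact permutation p of 0.333, the smallest that 2 against 2 libraries can give.

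Contact number, which counts the listed interactions of a gene body, was lower at E16.5 for Tcf7l2, Lef1 and Tle3 and higher for none of the 6 genes (edgeR quasi-likelihood test, Benjamini-Hochberg adjusted over 4036 genes; at an unadjusted p under 0.05, 4 were lower and 0 higher). Among all genes tested, 3.49% were lower and 11% higher by the same rule. DESeq2 called 2 of the 6 lower, Tcf7l2 and Lef1, and 0 higher. The test scaled each library by its total over the genes tested and a TMM factor. Its changes are therefore not ratios of interactions per list length. The median log2 change of all genes was 0.25 with TMM scaling and 0.11 by library total, a shift of 0.14. Relative to that median, the change was -2.35 for Tcf7l2, -1.98 for Lef1, -1.02 for Tle3, -1.21 for Tcf7l1, -0.72 for Tle1 and 0.06 for Tle4. The libraries are bulk tissue enriched for H3K4me3. A contact held by fewer cells, a weaker contact in each cell and less of the mark at its bins cannot be told apart.

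**Figure D1:**
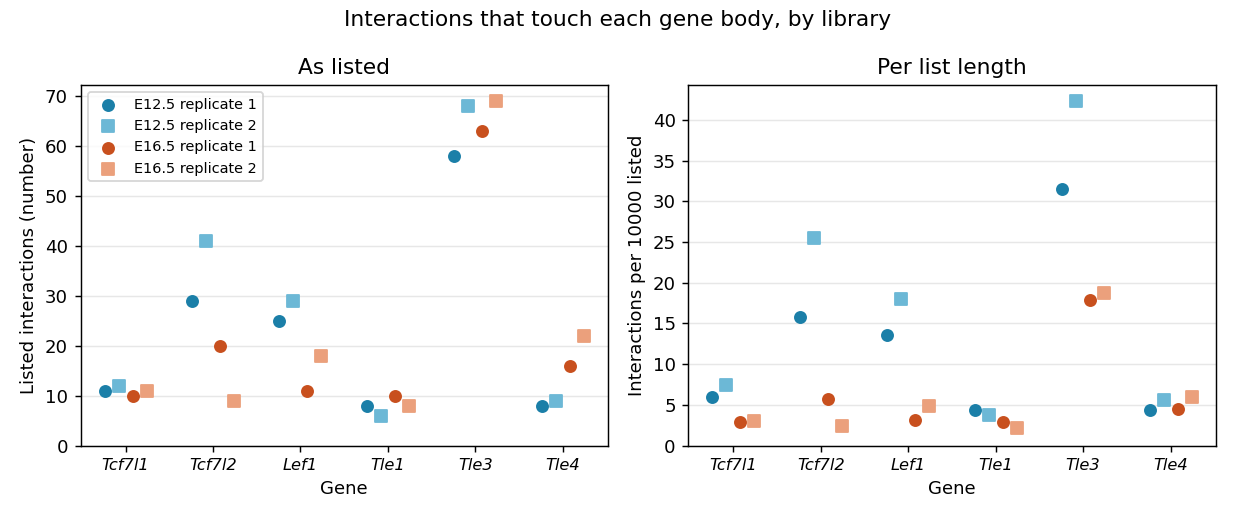
Number of listed interactions that touch each gene body (left) and the same per 10000 interactions listed in that library (right), 1 point per library. As listed, both E16.5 points lie below both E12.5 points for Tcf7l2 and Lef1, as for 3.39% of genes tested. They lie above them for Tle4, as for 64.5%. Per list length, the E16.5 points lie lower for every gene except Tle4. The share of all genes that separate so per list length was not counted.

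Tcf7l2 encodes a TCF factor that can activate or repress Wnt targets. Its body lies at chr19:55741797-55933659 on the plus strand, and the RefSeq starts used here include a first start at 55741810 and an internal start at 55895321, which begins shorter transcripts inside the gene. The 250 bases before each of these starts are shown because the bins that hold them carried most of the gene's contacts, in lower case with a TCF/LEF motif match in capitals (RefSeq, GRCm38.p6, plus strand, chr19:55741560-55741809 and chr19:55895071-55895320).
Tcf7l2 first start: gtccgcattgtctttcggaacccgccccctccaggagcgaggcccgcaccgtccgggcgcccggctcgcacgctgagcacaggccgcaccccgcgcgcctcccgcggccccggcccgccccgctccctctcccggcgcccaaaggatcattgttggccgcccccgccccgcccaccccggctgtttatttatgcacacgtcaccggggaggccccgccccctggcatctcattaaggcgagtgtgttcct
Tcf7l2 internal start: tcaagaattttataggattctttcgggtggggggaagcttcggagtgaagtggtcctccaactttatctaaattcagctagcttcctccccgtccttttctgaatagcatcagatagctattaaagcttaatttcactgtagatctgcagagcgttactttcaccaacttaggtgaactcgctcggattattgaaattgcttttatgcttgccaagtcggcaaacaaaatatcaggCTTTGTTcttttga
The first window is 72.8% G and C and the internal one 40.8%. The motif was searched on both strands as CTTTGTT and its variants that end in TA, AT or AA. It was found in the internal window, as CTTTGTT from 14 to 8 bases before the start, and not in the first window. Of all 32851 windows of this length in the table, 14.8% hold at least 1 match, and of the 11 windows of the 6 genes, 2 do (18.2%). A match is a description of these letters only.

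Tcf7l2 had 29 and 41 interactions at E12.5 against 20 and 9 at E16.5. The stages did not overlap, in the same direction as 3.39% of the genes tested, and the 2 E16.5 libraries differed from each other by more than the E12.5 ones did in proportion. The log2 change was -2.10 ± 0.34 (SE, n = 2 against 2), or 4.30-fold lower after the test's scaling (edgeR adjusted p = 0.00118). Dropping E16.5 replicate 1 gave -2.78 and dropping E16.5 replicate 2 gave -1.62, both past the threshold. Of the 4036 genes tested, Tcf7l2 had the 39th lowest change.

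The contacts missing at E16.5 were mostly long. Interactions of Tcf7l2 beyond 200 kb numbered 22 and 30 at E12.5 against 12 and 1 at E16.5, whereas those of at most 200 kb numbered 7 and 11 against 8 and 8. Restricted to at most 200 kb, the change was -0.69 and did not pass (adjusted p = 0.499, within a range of 1.65e-09 to 0.499 over 17 alternatives). Of the gene's 52 bin pairs, 34 had their partner in Vti1a, the upstream neighbour, which encodes a SNARE protein of vesicle fusion. These Vti1a contacts numbered 22 and 27 at E12.5 against 11 and 1 at E16.5. E16.5 replicate 2 was thus the low library, with a single contact in Vti1a.

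Both start bins reached the same upstream stretch. The first start bin had 14 and 18 interactions at E12.5 against 12 and 8 at E16.5, a log2 change of -1.43 ± 0.34 (SE). The internal start bin had 11 and 14 at E12.5 against 8 and 2 at E16.5, a change of -2.05 ± 0.49 (SE). Both passed in a fit over 2140 promoter bins (edgeR adjusted p = 0.0272 for each), in which 2.38% of bins were lower and 8.32% higher. That fit was chosen after seeing the data. Over all libraries, the first start bin had 16 partners outside the gene and the internal one 15, of which 12 were shared. Within a library the shared partners numbered 8 and 7 at E12.5 against 3 and 0 at E16.5. The bin at 55380001-55390000 in Vti1a was one of them: 28, 40 and 24 read pairs linked it to the first start bin, 360 kb away, and 36, 38 and 29 linked it to the internal bin, 510 kb away, in the E12.5 replicates and E16.5 replicate 1, while E16.5 replicate 2 listed neither.

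Of the 52 Tcf7l2 bin pairs, 9 (17.3%) were listed in both E12.5 libraries and in neither E16.5 library, against 1.83% of all bin pairs. The other way round there were 0, against 15.2% of all. The 3 of these 9 with the most read pairs all ended in Vti1a. They joined the internal start bin to 55410001-55420000 (22 and 21 read pairs), the bin before it to 55380001-55390000 (29 and 13), and the internal start bin to 55550001-55560000 (29 and 13).

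**Figure D2:**
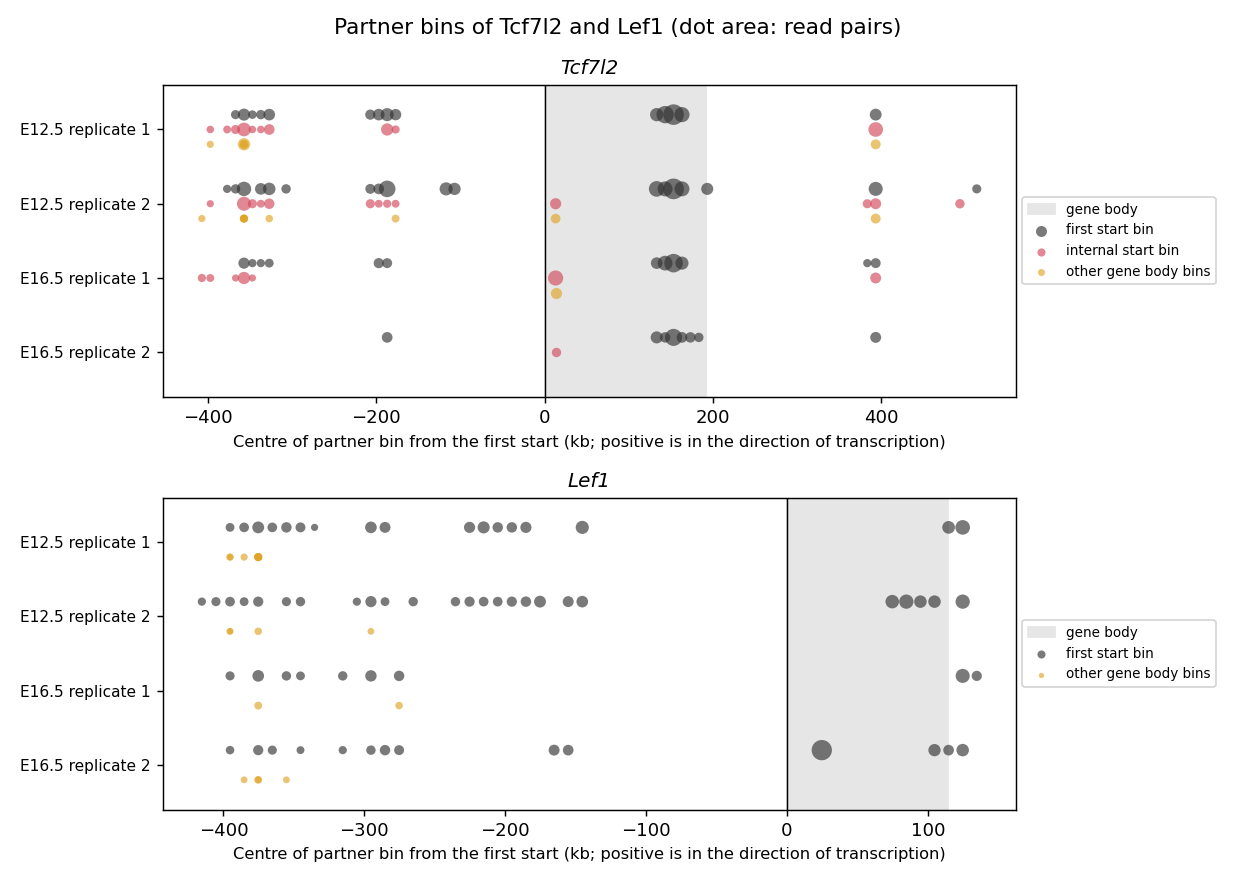
Centres of the partner bins of Tcf7l2 (top) and Lef1 (bottom) by distance from the first start in kb, 1 row per library, with dot area in proportion to read pairs and colour for the gene bin at the other end. Contacts of the Tcf7l2 first start bin at 330, 340 and 360 kb upstream appear in both E12.5 libraries and E16.5 replicate 1. They are not in the list of E16.5 replicate 2. The Lef1 contacts 190 to 230 kb upstream appear at E12.5 only.

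Lef1 encodes the LEF factor, itself a transcriptional target of Wnt signalling in many tissues. Its body lies at chr3:131110297-131224357 on the plus strand. Its first start bin held 33 of its 45 bin pairs, so the 250 bases before the first start are shown (RefSeq, GRCm38.p6, plus strand, chr3:131110047-131110296, with no motif match).
Lef1 first start: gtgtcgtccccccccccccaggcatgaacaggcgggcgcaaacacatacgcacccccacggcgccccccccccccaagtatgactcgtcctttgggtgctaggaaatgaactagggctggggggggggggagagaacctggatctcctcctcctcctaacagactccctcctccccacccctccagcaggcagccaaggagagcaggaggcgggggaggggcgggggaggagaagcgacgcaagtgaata
The window is 66.4% G and C. A motif match, CTTTGTA on the reverse strand, lay 147 to 141 bases before another Lef1 start, at 131156294, whose bin had 1 interaction in E12.5 replicate 1 and 0 in the other libraries.

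Lef1 had 25 and 29 interactions at E12.5 against 11 and 18 at E16.5, without overlap between the stages. The log2 change was -1.73 ± 0.29 (SE, n = 2 against 2), or 3.32-fold lower after the test's scaling (edgeR adjusted p = 0.00154). Leaving out 1 library at a time gave -2.09 to -1.42, each past the threshold. With each cluster of adjoining bins counted once, the change was -0.56 (1.47-fold lower) and did not pass (adjusted p = 0.807, in a range of 9.23e-06 to 0.807 over 17 alternatives). The first start bin alone had 17 and 25 against 9 and 14, a change of -1.62 ± 0.33 (SE) in the fit over promoter bins (edgeR adjusted p = 0.0170).

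Lef1 contacts pointed almost wholly upstream. Of its 45 bin pairs, 37 ended upstream of the gene, 2 downstream in Hadh, which encodes a mitochondrial enzyme of fatty acid oxidation, and 6 within the body. Upstream, 9 pairs ended in bins of Rpl34, a ribosomal protein gene, and 2 in Ostc, which encodes a subunit of the oligosaccharyltransferase complex. In all, 26 pairs ended where no protein-coding gene lies. Among these were 5 adjoining bins at chr3:130880001-130930000, 190 to 230 kb upstream. Each was listed with the first start bin in both E12.5 libraries, at 18 to 28 read pairs, and in neither E16.5 library. In total 9 Lef1 pairs (20%) were listed at E12.5 only in this sense and 2 (4.44%) at E16.5 only, against 1.83% and 15.2% of all pairs. Of the former, 130960001-130970000 had the most read pairs (33 and 26), followed by 130890001-130900000 (28 and 18) and 130920001-130930000 (24 and 21). The 2 at E16.5 only ended at 130830001-130840000 (21 and 19 read pairs) and 130790001-130800000 (17 and 13).

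Tcf7l1 encodes a TCF factor known mainly as a repressor. Its body lies at chr6:72626371-72789045 on the minus strand. The gene had 11 and 12 interactions at E12.5 against 10 and 11 at E16.5, so the numbers as listed overlapped. The log2 change after the test's scaling was -0.96 ± 0.39 (SE), and it did not pass after adjustment (edgeR unadjusted p = 0.0257, adjusted p = 0.116). Its contacts were short, with a median distance of 135 to 140 kb and none beyond 190 kb in any library. Of its 16 bin pairs, 9 lay within the gene body and joined the start bin at 72780001-72790000, or the bin beside it, to bins in the far part of the gene.

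**Figure D3:**
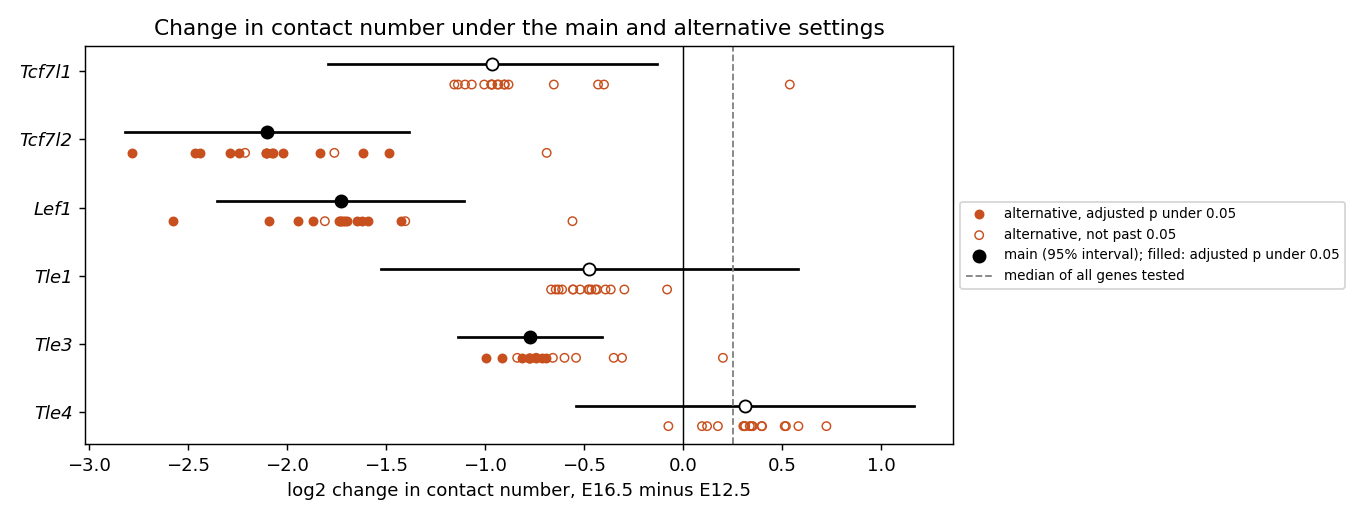
Log2 change in contact number (E16.5 minus E12.5) of each gene, with the main estimate and its 95% interval in black and the alternative settings as orange points below it. The intervals of Tcf7l2, Lef1 and Tle3 lie below 0 and below the median of all genes, drawn as a dashed line. So does that of Tcf7l1 (-1.80 to -0.13), which did not pass after adjustment. The Tle3 points past the threshold are fewer than those of Tcf7l2 and Lef1, 9 of 17.

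Of the corepressor genes, Tle3 had by far the most contacts although its body is short. It lies at chr9:61372326-61418497 on the plus strand and had 58 and 68 interactions at E12.5 against 63 and 69 at E16.5. These numbers overlapped. The gene was lower only after scaling between libraries, by a log2 change of -0.78 ± 0.17 (SE, edgeR adjusted p = 0.00778). That call was lost without E12.5 replicate 2 (adjusted p = 0.0904), with DESeq2 (0.289), with lists of equal length (0.333) and when only the bins at the gene's ends were counted (0.432), within a range of 0.000706 to 0.958 over 17 alternatives.

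Inside Tle3, the listed numbers of the start bin and of the bin after it differed in direction. The start bin at 61370001-61380000 had 37 and 50 interactions at E12.5 against 61 and 62 at E16.5. Its log2 change after the test's scaling was -0.26 ± 0.20 (SE, edgeR adjusted p = 0.503). The next bin, 61380001-61390000, had 15 and 14 at E12.5 against 1 and 1 at E16.5. It holds no start and was not tested by itself. As listed, the start bin was higher in both E16.5 libraries, as were the gene bodies of 64.5% of the genes tested. The next bin was lower, as were 3.39% of the genes tested. Every one of the 21 partners that the next bin had in any library was also a partner of the start bin in some library. Of the start bin's 70 bin pairs, 11 were listed in both E16.5 libraries only and 1 in both E12.5 libraries only. These classes held 15.2% and 1.83% of all bin pairs. Of the next bin's 21 bin pairs, the counts were 0 and 8. Among the E12.5-only pairs of Tle3, those with the most read pairs joined the start bin to 61610001-61620000 (27 and 31) and the next bin to 61890001-61900000 (20 and 24) and 61690001-61700000 (22 and 21). The E16.5-only pairs with the most joined the start bin to 61530001-61540000 (36 and 39 read pairs), 61720001-61730000 (25 and 31) and 61600001-61610000 (29 and 25).

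Tle3 contacts ran to both sides, 36 of its bin pairs upstream and 66 downstream, and 94 of 102 ended where no protein-coding gene lies. They reached as far as Uaca upstream and, downstream, a bin shared by Rplp1, a ribosomal protein gene, and Kif23, which encodes a kinesin of cell division. The farthest contact listed in all 4 libraries reached 61910001-61920000, that shared bin, 540 kb away, with 28 and 24 read pairs at E12.5 against 21 and 25 at E16.5. Its median distance was 360 and 385 kb at E12.5 against 370 and 390 kb at E16.5.

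**Figure D4:**
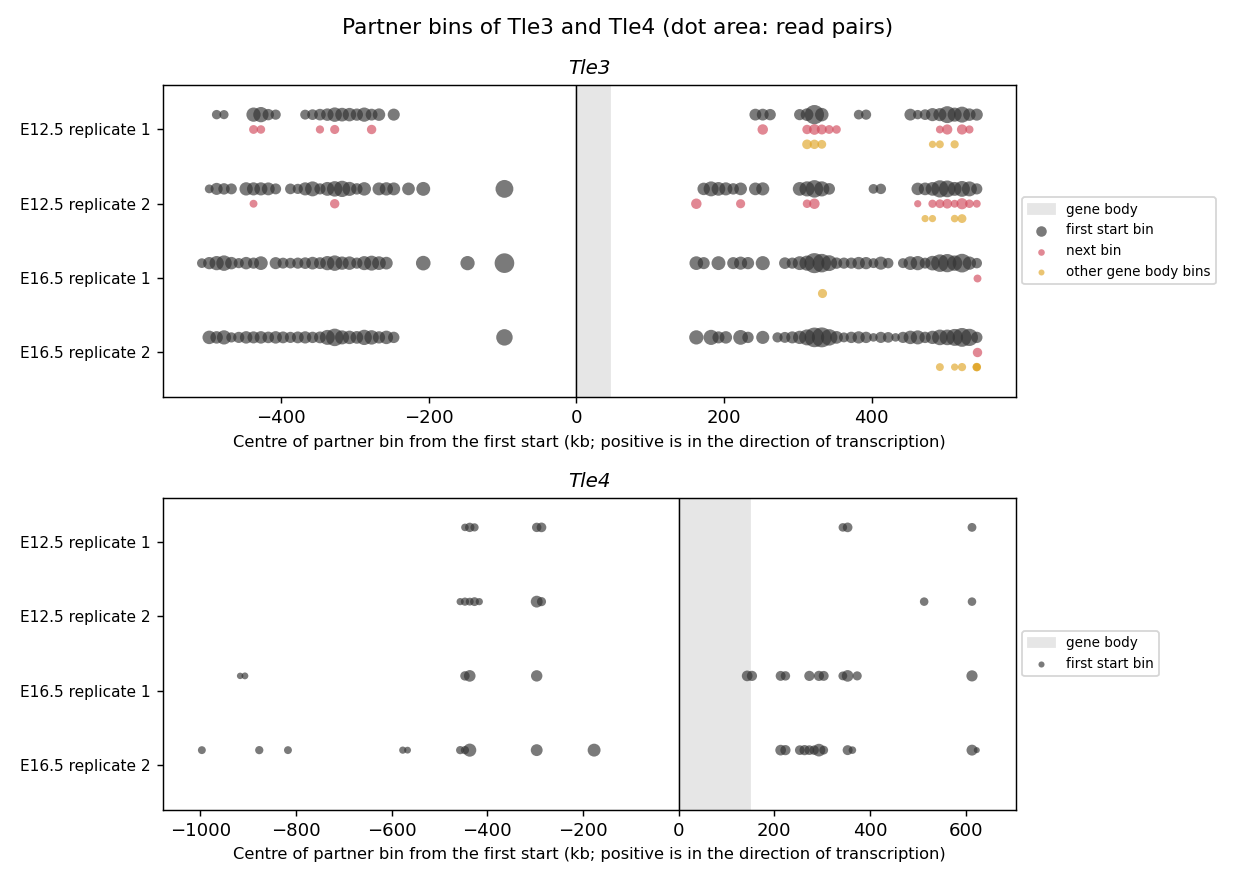
Centres of the partner bins of Tle3 (top) and Tle4 (bottom) by distance from the first start in kb, 1 row per library, with dot area in proportion to read pairs and colour for the gene bin at the other end. The bin after the Tle3 start bin has 15 and 14 contacts at E12.5 against 1 and 1 at E16.5, and the Tle4 contacts 210 to 300 kb in the direction of transcription that both E16.5 libraries share are in neither E12.5 list.

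Tle4 was the one gene with more listed interactions at E16.5 in every library. It lies at chr19:14448072-14598183 on the minus strand, and all its 32 bin pairs involved the start bin at 14590001-14600000. The 250 bases before its first start are shown for comparison with Tcf7l2 and Lef1 (RefSeq, GRCm38.p6, minus strand, chr19:14598184-14598433, with no motif match).
Tle4 first start: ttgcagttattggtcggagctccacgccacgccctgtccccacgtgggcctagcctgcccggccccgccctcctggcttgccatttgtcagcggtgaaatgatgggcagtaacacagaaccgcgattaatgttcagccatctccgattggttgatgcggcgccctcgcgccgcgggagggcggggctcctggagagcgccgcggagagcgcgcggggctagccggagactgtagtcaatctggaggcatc
Its G and C content is 65.2%. Tle4 had 8 and 9 interactions at E12.5 against 16 and 22 at E16.5. Numbers as listed were higher without overlap for 64.5% of the genes tested, since the lists lengthened. Per 10000 listed, Tle4 had 4.3 and 5.6 at E12.5 against 4.5 and 6.0 at E16.5, which overlap. The log2 change of Tle4 after the test's scaling was 0.31 ± 0.40 (SE, edgeR adjusted p = 0.670), with a 95% interval of -0.54 to 1.17. With lists of equal length it was -0.07 (adjusted p = 0.946, in a range of 0.474 to 0.946). The interval allows a change of either sign.

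At E16.5, 5 of the 32 Tle4 bin pairs (15.6%) were listed in both libraries and in neither E12.5 library, against 15.2% of all bin pairs. All 5 lay 210 to 300 kb in the direction of transcription. Those with the most read pairs ended at 14300001-14310000 (20 and 31), 14380001-14390000 (19 and 22) and 14320001-14330000 (20 and 18). At E12.5 there were 2 (6.25%, against 1.83% of all), to 14880001-14890000 (18 and 16 read pairs) and 15020001-15030000 (13 and 15). The longest contact reached 610 kb in both E12.5 libraries and 920 and 1000 kb in the E16.5 libraries. The latter 2 were each listed in 1 library only, at 8 and 12 read pairs. The median distance was 390 and 440 kb at E12.5 against 320 and 355 kb at E16.5. Of the 32 pairs, 30 ended where no protein-coding gene lies.

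Tle1, which lies at chr4:72109945-72200989 on the minus strand, had few and long contacts. Its 8 and 6 interactions at E12.5 against 10 and 8 at E16.5 overlapped, with a log2 change of -0.47 ± 0.50 (SE, edgeR adjusted p = 0.596). The median distance was 710 and 720 kb at E12.5 against 775 and 780 kb at E16.5, against 260 to 300 kb for all interactions of a library. No Tle1 contact was listed in all 4 libraries. The 3 that both E16.5 libraries and neither E12.5 library listed ended 830 to 840 kb upstream at chr4:73030001-73050000, with 9 to 16 read pairs. They were 17.6% of the 17 Tle1 bin pairs, against 15.2% of all bin pairs. Its contacts lay in 2 adjoining bins with equal sums over the libraries: the start bin 72200001-72210000 had 4 and 2 at E12.5 against 7 and 3 at E16.5, and 72190001-72200000 had 4 and 4 against 3 and 5.

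Set against the whole list, the 6 genes were rich in contacts of the earlier stage. Of their 264 bin pairs, 31 (11.7%) were listed in both E12.5 libraries and in neither E16.5 library, against 1.83% of all 58543 bin pairs. The reverse class held 21 (7.95%), against 15.2% of all. Pairs listed in all 4 libraries numbered 50 (18.9%), against 11.7% of all. The E12.5-only pairs came from Tle3 (10), Tcf7l2 (9), Lef1 (9), Tle4 (2), Tcf7l1 (1) and Tle1 (0). These shares are descriptions, since adjoining bins of 1 contact and pairs that share a start bin are not independent. The median distance of the genes' interactions was 350 and 340 kb at E12.5 against 345 and 350 kb at E16.5, so it overlapped between the stages (exact permutation p = 1, two-sided, n = 2 against 2).

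Contact strength, the number of read pairs in a contact listed in all 4 libraries, could be tested for 50 of the bin pairs. Its log2 changes are given after scaling each library by its total over the 6875 pairs tested and a TMM factor. Of these, 9 were lower at E16.5 and 0 higher (edgeR, adjusted over 6875 bin pairs; 16 lower and 3 higher at an unadjusted p under 0.05). Among all 6875, 4.58% were lower and 5.88% higher. Tcf7l2 supplied 6 of the 9, all of its contacts listed in every library.

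The Tcf7l2 contact with the largest change joined the first start bin to 55550001-55560000 in Vti1a, 190 kb upstream. It had 33 and 53 read pairs at E12.5 against 19 and 22 at E16.5, a log2 change of -1.43 ± 0.28 (SE, edgeR adjusted p = 0.00045). The contact between the first and the internal start bins had 81 and 82 read pairs against 66 and 56, a change of -0.78 ± 0.22 (SE, adjusted p = 0.0131). Its neighbours within the body had 34 and 47 against 26 and 28 (bin 55870001), 58 and 43 against 42 and 21 (bin 55880001) and 44 and 43 against 33 and 22 (bin 55900001). The farthest, at 56130001-56140000 and 390 kb downstream, had 27 and 38 against 19 and 23 (log2 change -0.99, adjusted p = 0.0121). In each of the 6 contacts both E16.5 libraries had fewer read pairs than both E12.5 libraries. The share of all 6875 pairs that separated in this way was not counted, so this is a description only.

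These calls rested on read pairs scaled by library, without the expected count. The authors' expected count of the 6 Tcf7l2 contacts also went down, from sums of 70.7 and 66.7 at E12.5 to 59.6 and 43.1 at E16.5, and each E16.5 library lay below each E12.5 library for 6 of 6 contacts, as for 8.13% of all 6875 pairs. The sources used here do not say which biases the expected count removes. The ratio of observed to expected sums was 3.92 and 4.59 at E12.5 against 3.44 and 3.99 at E16.5 for Tcf7l2, which overlap. With the expected count as an offset, 0 of the 50 contacts passed in edgeR (1 lower and 5 higher at an unadjusted p under 0.05), and the change of the start-to-start contact was 0.12 in place of -0.78. DESeq2, without the offset, called 1 of the 50, the contact at 55550001 (adjusted p = 0.0491, in a range of 4.79e-06 to 0.640). Leaving out E12.5 replicate 2 also left 1 call and leaving out E16.5 replicate 2 left 4.

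**Figure D5:**
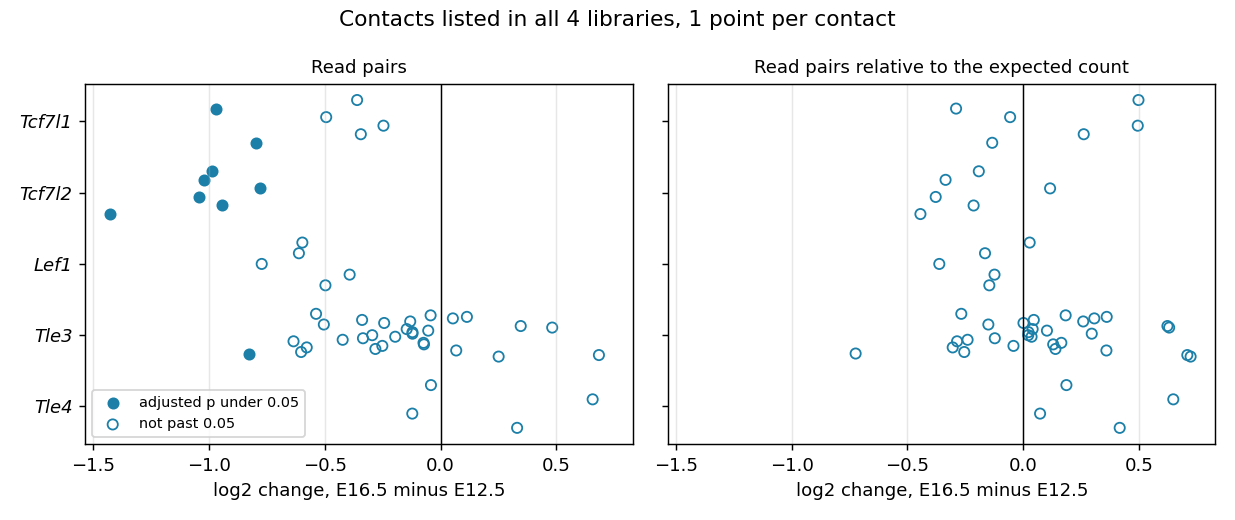
Log2 change in read pairs (E16.5 minus E12.5) of the 50 contacts listed in all 4 libraries, 1 point per contact. The left panel uses read pairs scaled by library, and the right panel adds the authors' expected count as an offset. Tle1 has no such contact. The 6 Tcf7l2 contacts lie at -1.43 to -0.78 on the left, all filled as past the threshold, and at -0.44 to 0.12 on the right, none filled.

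Outside Tcf7l2, the calls were few. Within Tcf7l1, the start bin's contact with 72670001-72680000 had 49 and 47 read pairs at E12.5 against 33 and 30 at E16.5 (log2 change -0.97, edgeR adjusted p = 0.00681). That with 72630001-72640000, its farthest at 150 kb, had 45 and 59 against 42 and 35 (-0.80, adjusted p = 0.0267). The Tcf7l1 contact with the next smallest p, to 72660001-72670000, had 49 and 56 against 54 and 42 and overlapped (adjusted p = 0.195). In Tle3, 1 of 29 contacts was lower, between the start bin and 60930001-60940000, at 39 and 33 against 24 and 28 (-0.83, adjusted p = 0.0357), and the median over the 29 was -0.15, against -0.01 over all pairs. The Tle3 contact with 61050001-61060000 had 36 and 51 against 34 and 38 (adjusted p = 0.106), and that with 60890001-60900000 had 16 and 25 against 46 and 39, the largest upward change, which did not pass (0.68, adjusted p = 0.111). Of the 5 Lef1 contacts, 0 passed (edgeR; 3 lower at an unadjusted p under 0.05, 0 with DESeq2). The strongest, with Hadh at 131230001-131240000, had 41 and 39 read pairs against 38 and 30 (adjusted p = 0.133). The Lef1 contact with 130810001-130820000 had 26 and 24 against 25 and 17, that with 130760001-130770000 19 and 17 against 15 and 12, and the farthest, at 130710001-130720000 and 400 kb, 15 and 18 against 16 and 14. All 5 Lef1 contacts had a change below 0, from -0.77 to -0.39, with a median of -0.60 against -0.01 over all pairs. Tle4 had 4 such contacts and 0 calls (edgeR; 1 higher at an unadjusted p under 0.05, 0 with DESeq2). Its contact with 15030001-15040000 had 17 and 12 read pairs against 26 and 33 (adjusted p = 0.186). The Tle4 contact with 14890001-14900000 had 17 and 27 against 25 and 27, and the farthest, at 13980001-13990000 and 610 kb, 15 and 14 against 24 and 23.

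Other Wnt pathway genes were counted in lists of 16 to 26 symbols by role, with the contact number of each gene body. Over all these lists together with a list of other Groucho partners, each gene once and without the 6 genes, 61 were tested, 3 were higher and 9 lower, and their median log2 change was 0.06 against 0.25 over all genes. Among the ligands, 0 of 11 tested passed (edgeR; 0 at an unadjusted p under 0.05, 0 with DESeq2). The ligand genes with the smallest p were Wnt3 (6 and 5 interactions against 4 and 4) and Wnt9a (6 and 5 against 4 and 5). Of 6 receptor and coreceptor genes, 1 was lower, Ror2, a receptor tyrosine kinase gene of the non-canonical branch (17 and 12 against 10 and 11, log2 change -1.30, edgeR adjusted p = 0.0187). The secreted and membrane inhibitors gave 0 of 5 (edgeR; 0 at an unadjusted p under 0.05, 0 with DESeq2), with Sfrp2 (1 and 2 against 8 and 5) and Apcdd1 (4 and 1 against 9 and 7) at the smallest p. Of 10 cytoplasmic transducers, Axin2, a scaffold of the destruction complex and itself a Wnt target, was lower (30 and 32 against 23 and 30, which overlap as listed, -1.07, adjusted p = 0.0097). Tnks, which encodes a tankyrase that marks axin for degradation, was higher (2 and 0 against 9 and 11, 2.38, adjusted p = 0.0492). DESeq2 called 0 of the receptor genes and 0 of the transducers in either direction (1 lower in each list at an unadjusted p under 0.05). The other nuclear components gave 0 of 11 (edgeR; 1 lower at an unadjusted p under 0.05, 0 with DESeq2), with Ssbp3 (25 and 19 against 22 and 30) and Ssbp2 (2 and 2 against 12 and 6) at the smallest p.

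Of 11 tested Wnt target genes, which include Lef1 itself and Axin2, 5 were lower and 2 higher, with a list median of -1.28. The forebrain patterning gene Emx2 had 85 and 99 interactions against 65 and 70 (log2 change -1.29, edgeR adjusted p = 0.00032). Sp8, a zinc finger gene of cortical patterning, had 36 and 28 against 23 and 20 (-1.41). Ccnd1, the cyclin D1 gene, had 14 and 16 against 9 and 8 (-1.65). Myc, a growth regulator gene, went the other way with 9 and 10 against 48 and 64 (1.71, adjusted p = 0.00158), as did Id2, an inhibitor of basic helix-loop-helix factors, with 19 and 15 against 54 and 55 (0.83, adjusted p = 0.0313). DESeq2 called 2 of these targets lower and 1 higher. Of 11 tested genes in the list drawn up as other Groucho partners, 4 were lower and 0 higher in edgeR, with 1 higher at an unadjusted p under 0.05. DESeq2 called 1 lower and 0 higher. The 4 were Pax6 (41 and 34 against 24 and 14, -1.82), Six3 (64 and 67 against 68 and 55, -0.93), Hes1 (31 and 33 against 26 and 25, -1.17) and Nkx2-2 (28 and 21 against 24 and 15, -1.17).

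Markers of brain regions also differed between the stages. Of 9 tested markers of the thalamus and other diencephalon, 4 were lower (Irx3, Barhl2, Otp and Gbx2) and 0 higher, with a median of -1.31. At an unadjusted p under 0.05 in edgeR, 8 were lower and 0 higher, and DESeq2 called 1 lower. As listed, Irx3 and Gbx2 overlapped between the stages. Rora had a change above 0 (8 and 9 against 25 and 11, 0.24) and did not pass. The summed interactions of this list per 10000 listed were 96.1 and 69.0 at E12.5 against 42.8 and 23.4 at E16.5. The lowest sum was in E16.5 replicate 2, which was also the lowest library of Tcf7l2, whereas at E12.5 replicate 1 had the higher marker sum and replicate 2 more Tcf7l2 interactions. Of 9 tested markers of the telencephalon, 4 were lower and 1 higher (2 and 1 with DESeq2), and the sums were 190.1 and 218.4 against 107.1 and 97.0. Markers of the midbrain and hindbrain were lower in 3 of 6 tested (Pax2, Pax7 and Hoxb4; 1 lower with DESeq2), with sums of 36.9 and 29.9 against 12.47 and 9.24, and 4 of the 10 listed had no interaction in any library (En2, Pax5, Hoxb1 and Gata3). Of 5 tested markers of the choroid plexus and cortical hem, 1 was lower, Otx2 (11 and 6 against 1 and 0), and 0 higher. At an unadjusted p under 0.05 in edgeR, 3 were lower and 0 higher, and DESeq2 called 0. Only Rspo3 had a change above 0 (8 and 7 against 13 and 25, 0.49), which did not pass. The list sums were 22.8 and 19.3 against 9.35 and 10.3, and the choroid plexus marker Ttr was at 0 in all 4 libraries. Markers of meninges and mesenchyme gave 0 calls of 5 (edgeR; 1 lower at an unadjusted p under 0.05, 0 with DESeq2), at sums of 19.5 and 21.1 against 14.7 and 8.97. No endothelial marker had enough interactions to be tested, and 5 of 8 were at 0 in every library (sums of 0 to 1.09). Of the microglia and blood list, Runx1 alone was tested and did not pass, at list sums of 4.89 and 6.84 against 5.95 and 4.35. The part of these markers in the values of Tcf7l2 and Lef1 was not tested.

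By a rule of likeness, the Euclidean distance over the 4 libraries between log2 values of interactions per 10000 listed, genes were matched to the 2 genes most like each. For Tcf7l2 these were Nr2f2 (29 and 36 interactions against 29 and 14) and Pax6 (41 and 34 against 24 and 14), and for Lef1 Cd40 (21 and 27 against 10 and 12) and Srsf1 (22 and 26 against 17 and 20). Tle3 was nearest to Bcl11a (58 and 62 against 65 and 78) and Rnd3 (53 and 61 against 67 and 78), and Tle4 to Rab33b (8 and 9 against 18 and 20) and Fnbp1l (7 and 9 against 15 and 19). The nearest to Tle1 were Htr6 and Rpl23a. A match over 4 values says only that these numbers are alike.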

How the data were processed

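The members and gene lists were chosen with earlier results of these data known. Each library has 1 deposited file, which per the file headers gives interactions between 10 kb bins with the authors' count of read pairs, an expected count (a signal from the authors' model), the FDR, which is a q-value, and for each cluster its size and the -log10 of its p-value. BWA, SAMtools and mm10 are named in the submitters' processing notes; the sources used here give no version, caller or threshold. The lists hold autosomal pairs 20 to 1000 kb apart. Counts were used as deposited, and read depth beyond listed pairs is unknown.

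Gene bodies came from the RefSeq table of GRCm38.p6, the same primary sequence as mm10, and starts from its promoter table; coordinates are 1-based. Contact number (4036 of 20665 genes, those with a sum of at least 10) and contact strength (6875 pairs) were fitted in edgeR 4.0.16 (R 4.3.3) with TMM, robust quasi-likelihood, stage as sole term and adjusted p under 0.05; changes are E16.5 minus E12.5. Scripts were tested on simulated data. Replicates differed by more than counting noise (chi-square over degrees of freedom 1.3 and 1.75). Same-numbered libraries of the 2 stages deviated together only weakly (correlation 0.0889 and 0.128), and no label pairs them. Named contacts are, per gene, those of smallest p or past the threshold among pairs in all 4 libraries, the farthest such pair, and up to 3 with most read pairs per stage-only class; pathway genes are those past the threshold or else the 2 of smallest p. The matches of Tcf7l1 by likeness are not reported here. The alternatives were library totals without TMM, DESeq2 1.42.0, other filters, gene-end bins, a stricter FDR, equal lists, clusters counted once, read pairs, short distances, the expected count as offset, distance bins, quasi-dispersion of at least 1, a replicate block and leaving out each library.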

Additional observations from a re-analysis of the deposited data

How the results depend on the processing

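Tcf7l2 and Lef1 stayed lower in contact number, past the threshold, under 14 of 17 alternatives each; the other 3 were distances of at most 200 kb, clusters counted once and read pairs, which called 0 of 4, 0 of 6 and 0 of 6 genes tested in edgeR (1, 2 and 3 lower at an unadjusted p under 0.05). With clusters counted once the change was -1.76 for Tcf7l2 and -0.56 for Lef1, and with read pairs -2.21 and -1.81. These 2 settings called 0 of all genes (181 and 1566 at an unadjusted p under 0.05). Leaving out 1 library gave 2 to 3 genes called of the 6. All genes called numbered 584 in the fit as reported, 443 higher and 141 lower, and 97 with DESeq2, 225 at an FDR under 0.0001, 159 within 200 kb, 262 with lists of equal length (65.3% higher, against 75.9%), 370 with the replicate block and 268 to 507 without 1 library. The replicate block changed no call of the 6 genes in contact number and left 9 contacts called in strength. The direction turned for Tle3 within 200 kb (0.20), for Tcf7l1 with clusters counted once (0.54) and for Tle4 with lists of equal length (-0.075), all short of the threshold; the cause was not tested. For contact strength, calls among the 50 contacts fell from 9 to 1 with DESeq2, 0 with the expected count as offset and 1 to 6 without 1 library, and among all pairs from 719 to 98, 18 (100% of them higher, against 56.2%) and 274 to 537. With the offset, 20 of the 50 contacts turned from below to above 0 (13 of Tle3, 3 of Tcf7l1, 2 of Tle4, 1 of Tcf7l2 and 1 of Lef1) and 0 past the threshold. Of the named ones, the Tcf7l2 start-to-start contact (0.12), the Lef1 contact with Hadh (0.028) and the Tle4 contact with 14890001 (0.073) did so; without 1 library the last ranged from -0.45 to 0.28. The share of interactions that touch the genes differed by -0.520 percentage points, by -0.287 for gene-end bins and by -0.656 to -0.385 without 1 library. The median distance differed by 2.5 kb, by 10 kb at the stricter FDR, -40 kb with clusters counted once, 15 kb for gene-end bins and -2.5 to 7.5 kb without 1 library. Pairs near the authors' threshold limit every count of listed interactions, since read depth outside the lists is unknown.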
